A study of Mus musculus with 12 samples.

Results

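Ribosome assembly factors of the nucleolus were followed in primary mouse T-lineage acute lymphoblastic leukemias (a malignancy of T-cell precursors, T-ALL) exposed to dexamethasone, a synthetic glucocorticoid. The members were a list of 42 genes with known roles in ribosome assembly, and 41 of them were found by gene name among the 38339 rows of the table. The other gene, Utp4, stood in the table as Cirh1a and is given apart from the counts. The members comprised 15 small subunit factors, 14 large subunit factors, 8 proteins of small nucleolar ribonucleoproteins (snoRNPs) and 4 general nucleolar proteins.

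Total RNA was sequenced from bone marrow of moribund recipients that carried transplanted primary leukemias of a C57BL/6 x 129Sv/Jae F1 background. A recipient of each of 6 leukemias received dexamethasone (DEX) and another one vehicle (VEH), and marrow was taken 4 hours later. This gave 6 DEX and 6 VEH libraries, paired by leukemia. Leukemia 1 has the code 73A-46B, leukemia 2 is 73M-19A, leukemia 3 is 78A-143B, leukemia 4 is 2M-127B, leukemia 5 is 20M-116B and leukemia 6 is JW-81-59B. Both libraries of a pair come from different recipients, so a within-leukemia difference also holds the difference between animals. Red cells were lysed and no sort of the marrow is described, so other marrow cells may remain in it.

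Ribosomes are assembled in the nucleolus, where RNA polymerase I makes a long precursor that carries the RNAs of both subunits. Small nucleolar ribonucleoproteins modify and fold that precursor, the small subunit processome cuts out and folds the 18S RNA, and a separate set of factors, helicases and GTPases builds the pre-60S particle around the 28S RNA. Many of these genes are known targets of the transcription factor MYC, and their output is high in growing lymphoid cells.

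Levels were given as FPKM, a count of fragments divided by gene length and library size, which summed to between 1466471 and 2019058 per library. The file gave no counts. Sparse genes, where the smallest steps show the worth of 1 fragment, gave an estimate of 11700000 to 36300000 fragments in 11 libraries, and 95500000 in the VEH library of leukemia 2, where 1 fragment in a 700 bp model would be worth 0.019 FPKM and values of 2 decimals hardly resolve it. All 12 T-lineage markers passed the filter and 4 of them fell (33.3%, beside 9.28% of all tested genes). Their summed level was 1699.5 to 2336.8 FPKM in DEX and 1754.5 to 2751.2 FPKM in VEH libraries. Of 16 granulocyte markers 1 fell (6.25%), although 14 had a difference below 0 and the median log2 difference was -0.44. Their summed level was 1539.7 to 5543.9 FPKM in DEX and 2350.1 to 9172.5 FPKM in VEH libraries. Monocyte and macrophage markers (7) summed to 39.98 to 377.9 FPKM in DEX and 108.53 to 620.26 FPKM in VEH, and erythroid markers (9) to 14.21 to 150.6 FPKM in DEX and 8.67 to 1178.2 FPKM in VEH. The 8 B-lineage markers summed to 1.14 to 8.4 FPKM in DEX and 1.23 to 51.61 FPKM in VEH. No marker of these lists was at 0 in every library.

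Most of the assembly factors were lower in DEX than in VEH libraries 4 hours after dosing. Of 41 members, 28 fell, 0 rose and 13 did not pass the test (limma on log2(FPKM + 1), leukemia as a block, adjusted p under 0.05). The share that fell was 68.3%, beside 9.28% of all 12358 genes tested, and 4.27% of all tested genes rose. The members were chosen with earlier results of these data known, so their share is a description. At an unadjusted p under 0.05, 34 members were lower and 0 higher. The median log2 difference over the members was -0.40, beside -0.05 over all tested genes, and all 41 members had a difference below 0, as did 60.3% of tested genes (Pno1 and Noc4l moved above 0 under median-of-ratios and quantile scaling). In these bulk samples, fewer cells that express a gene and less RNA per cell cannot be told apart.

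The direction was shared by the leukemias for most members. Among the members, 25 were lower in each of the 6 leukemias (61.0%, beside 13.7% of all tested genes), and 5 had all DEX libraries below all VEH libraries (12.2%, beside 1.34%). Those 5 were Bysl, Tsr1, Nop2, Rrp1b and Dkc1. The count of 28 became 17 without leukemia 1, 18 without leukemia 4 and 16 without leukemia 5 (where 3.95%, 4.82% and 3.44% of all tested genes fell), and it was 14 with no filter on low genes (1.34% of all genes) and 18 with median-of-ratios scaling (5.81%). Rescaling to a fixed sum gave 34 (14.9% of all genes), and leaving out the leukemia block gave 0 (0.372%), with 25 at an unadjusted p under 0.05. Fitted alone, leukemias 1, 3 and 4 gave 23 members lower (4.23% of all genes), and leukemias 2, 5 and 6, whose DEX libraries have no sample number in their descriptions, gave 5 (2.08%). Both fits hold fewer pairs than the main fit. FPKM sums differed most between DEX and VEH libraries in leukemias 2, 5 and 6 (values are given with those of the leukemias). The part of this in the counts was not tested.

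**Figure D1:**
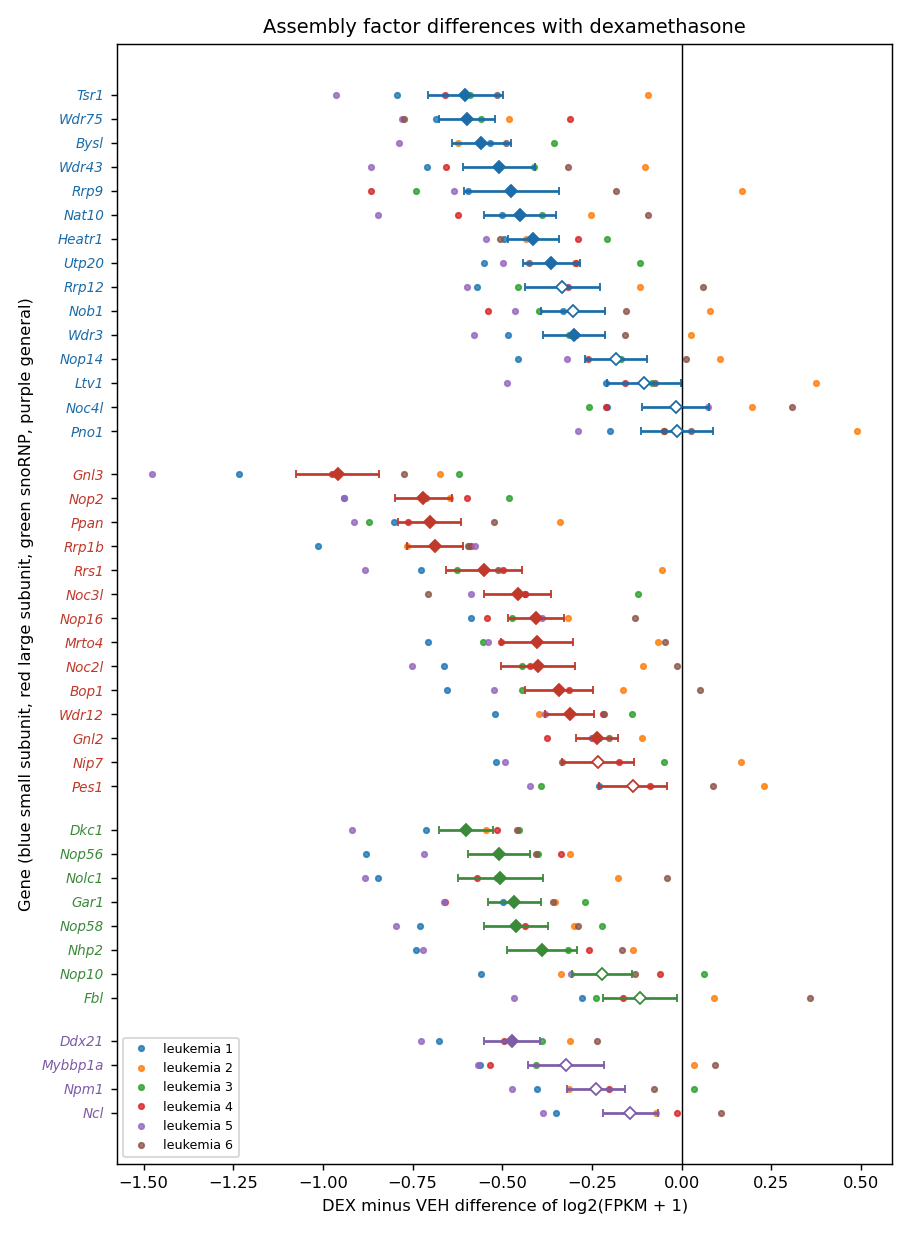
DEX minus VEH difference of log2(FPKM + 1) for the 41 members (x axis), by gene within the 4 classes (y axis). Diamonds with bars are the fitted difference ± SE, filled where the adjusted p was under 0.05, and dots are the 6 leukemias; Gnl3 lies farthest to the left at -0.96, and Pno1 (-0.01) and Noc4l (-0.02) lie closest to 0.

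**Figure D2:**
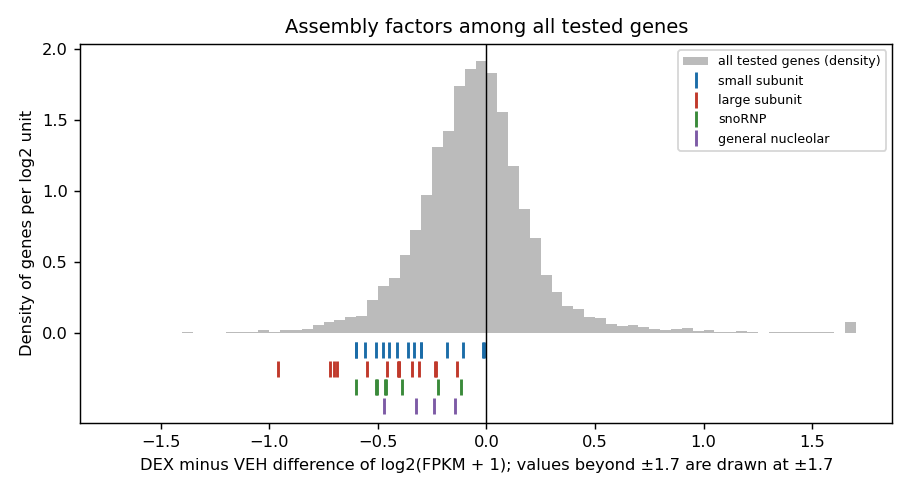
Fitted DEX minus VEH differences of the 41 members (ticks, coloured by class) under the density of the same difference over all 12358 tested genes (grey). The median of the members is -0.40 and that of all tested genes -0.05.

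The start regions of the members were searched for short motifs, with the canonical E-box, the site that MYC and its partner MAX bind, shown here because Myc, the gene of that factor, fell in the same libraries (values are given with those of the leukemias). RefSeq start regions on GRCm38.p6 (250 bases before to 50 after the start) were found for 35 of 41 members. The E-box CACGTG, a palindrome that reads the same on both strands, was in 8 of 35 members (22.9%), beside 11.996% of the 8753 tested genes with an entry. It was in 8.09% of all 27025 genes with an entry and, counted by start region instead of by gene, in 7.15% of all 32851. Among the members that fell it was in 4 of 25 (16.0%), beside 15.6% of all tested genes that fell. The 4 with a fall were Nop2, Tsr1, Wdr43 and Utp20, and those that did not pass were Ltv1, Pes1, Pno1 and Mybbp1a. Windows of 30 bases around the E-box, in capitals, are given 5′ to 3′ on the strand of the gene.
Tsr1 (chr11:74898092-74898121, plus strand): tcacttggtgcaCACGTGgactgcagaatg
Wdr43 (chr17:71616220-71616249, plus strand): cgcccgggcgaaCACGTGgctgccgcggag
Utp20 (chr10:88826765-88826794, minus strand): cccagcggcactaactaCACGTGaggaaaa
Ltv1 (chr10:13193092-13193121, minus strand): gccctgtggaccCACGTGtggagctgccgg
Pes1 (chr11:3963965-3963994, plus strand): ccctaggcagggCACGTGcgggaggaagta
Pno1 (chr11:17211540-17211569, minus strand): tgcgctgtacaaccacgCACGTGttcctct
Mybbp1a (chr11:72441347-72441376, plus strand): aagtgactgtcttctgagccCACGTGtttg
In these 7 genes the E-box lay 3 to 41 bases after the RefSeq start, counted with the first transcribed base as 1. In Nop2 it lay before the start, with its first base at -60, and the 250 bases before that start are shown with the E-box in capitals.
Nop2, 250 bases before the start (chr6:125131633-125131882, plus strand): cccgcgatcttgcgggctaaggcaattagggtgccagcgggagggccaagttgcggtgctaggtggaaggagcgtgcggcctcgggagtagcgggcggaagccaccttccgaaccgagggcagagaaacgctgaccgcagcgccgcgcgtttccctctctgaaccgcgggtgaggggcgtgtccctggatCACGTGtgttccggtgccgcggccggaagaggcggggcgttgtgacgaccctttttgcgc

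The other motifs were searched on both strands, and CACGTG and CACGCG cannot both be counted at a single site. The variant E-box CACGCG was in 11 of 35 members (31.4%), beside 20.4% of tested genes. CCGGAAG, a motif of ETS factors, was in 12 (34.3%), beside 22.4%. The TATA motif TATAAA was in 3 (8.57%), beside 8.28%, and the half-site AGAACA of the glucocorticoid receptor was in 6 (17.1%), beside 15.1%. These are matches of letters and show no binding.

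Among large subunit factors, 12 of 14 fell, 0 rose and 2 did not pass, with a median log2 difference of -0.40; the count was 7 without leukemia 1 and 6 without leukemia 5. Gnl3, which encodes the nucleolar GTPase nucleostemin (ENSMUSG00000042354, GRCm38 chr14:31012433-31019152), had a lowest, median and highest level of 24.66, 33.02 and 55.09 FPKM in DEX libraries, against 41.49, 72.76 and 85.23 FPKM in VEH libraries. Its DEX library was the lower one of each pair, and the groups overlapped only through the DEX library of leukemia 3 and the VEH library of leukemia 2. Gnl3 fell by 0.96 ± 0.12 on the log2 scale (SE, n = 6; adjusted p = 0.0023, limma), to a mean of 34.9 ± 11.1 FPKM in DEX, against 68.0 ± 15.8 FPKM in VEH (SD, n = 6 each), which is 51.2% of the VEH mean.

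Nop2, the cytosine methyltransferase of 28S ribosomal RNA (ENSMUSG00000038279, chr6:125131909-125144753), stood at 11.03, 17.9 and 20.72 FPKM in DEX libraries (lowest, median and highest), against 21.82, 29.3 and 34.37 FPKM in VEH libraries. The groups did not overlap. Nop2 fell by 0.72 ± 0.08 (SE, n = 6; adjusted p = 0.0016, limma), and single leukemias lay between -0.94 and -0.48. Ppan, whose yeast counterpart Ssf1 joins the early pre-60S particle, had 11.36, 17.9 and 20.57 FPKM in DEX libraries, against 19.79, 29.995 and 36.16 FPKM in VEH libraries. It was lower in all 6 leukemias although the groups overlapped slightly, and it fell by 0.70 ± 0.09 (adjusted p = 0.0025, limma). Rrp1b, a relative of the yeast 60S factor Rrp1, had 11.02, 15.8 and 18.37 FPKM in DEX libraries, against 19.44, 25.0 and 33.67 FPKM in VEH libraries. Again no DEX library reached a VEH library, and the fall was 0.69 ± 0.08 (adjusted p = 0.0017, limma).

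The other large subunit factors moved less. Rrs1, needed in yeast for placing the 5S particle, fell by 0.55, and Nop16 fell by 0.41. Noc2l and Noc3l, which in yeast form a complex on the pre-60S particle, fell by 0.40 and 0.46. Noc3l was the member with the lowest level, at 3.52, 4.76 and 6.12 FPKM in DEX libraries against 5.79, 6.33 and 8.77 FPKM in VEH libraries (adjusted p = 0.0152, limma), and only the highest DEX library lay within the VEH range. Mrto4, which in yeast holds the place of a stalk protein, fell by 0.40 and Gnl2, a GTPase of pre-60S export, by 0.24. The 3 genes of the PeBoW complex differed in their calls: Bop1 fell by 0.34 and Wdr12 by 0.31, while Pes1 stood at -0.14 with a 95% interval of -0.35 to 0.08 (adjusted p = 0.37, limma). The difference between these genes was not tested. Nip7, a small 60S factor, did not pass either (-0.23, adjusted p = 0.16, limma), with a value above 0 in leukemia 2 (0.17). Bop1 had the highest adjusted p of the 12 falls (0.046), and its call was lost in 11 of 19 alternatives.

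**Figure D3:**
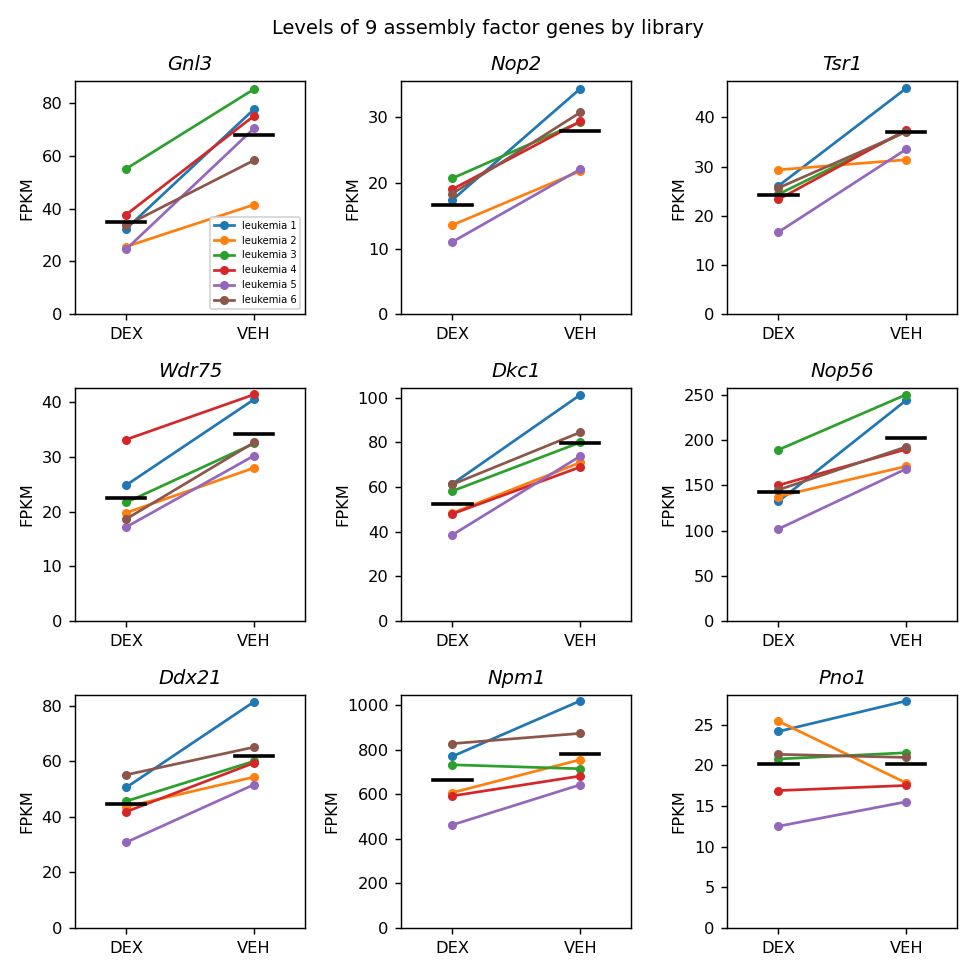
FPKM (y axis, from 0) of 9 assembly factor genes in the 6 DEX and 6 VEH libraries, with a line for each leukemia and a black bar for the group mean. Nop2, Tsr1 and Dkc1 have all DEX libraries below all VEH libraries, while for Pno1 the group means are 20.2 FPKM in both.

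Among small subunit factors, 9 of 15 fell, 0 rose and 6 did not pass, with a median of -0.36; the count was 5 without leukemia 1, without leukemia 4 or without leukemia 5. Tsr1, a GTPase-like protein of the late pre-40S particle (ENSMUSG00000038335, chr11:74898071-74909342), had 16.7, 25.0 and 29.35 FPKM in DEX libraries, against 31.4, 37.1 and 45.92 FPKM in VEH libraries. Every DEX library lay below every VEH library. Tsr1 fell by 0.60 ± 0.10 (SE, n = 6; adjusted p = 0.0085, limma), although leukemia 2 moved by only -0.09. Wdr75, one of the processome proteins that bind the precursor while it is being made (ENSMUSG00000025995, chr1:45795166-45823619), had 17.2, 20.8 and 33.2 FPKM in DEX libraries, against 28.03, 32.6 and 41.44 FPKM in VEH libraries. Leukemia 4 was the highest in both groups and made them overlap, yet every pair had the lower value in DEX. Wdr75 fell by 0.60 ± 0.08 (adjusted p = 0.0030, limma).

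Bysl, which encodes bystin, a factor of 40S maturation, was low in all libraries, at 3.85, 5.23 and 6.16 FPKM in DEX, against 7.05, 7.91 and 8.58 FPKM in VEH. Its groups did not overlap, and it fell by 0.56 ± 0.08 (adjusted p = 0.0047, limma). Wdr43, a partner of Wdr75 in the processome, had 27.03, 38.3 and 46.1 FPKM in DEX libraries, against 44.63, 51.5 and 61.95 FPKM in VEH libraries. It fell by 0.51 ± 0.10 (adjusted p = 0.0137, limma), with overlap between the highest DEX and the lowest VEH library.

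Among the other processome genes, the acetyltransferase gene Nat10, whose enzyme modifies 18S RNA, fell by 0.45, the scaffold genes Heatr1 and Utp20 by 0.41 and 0.36, and Wdr3 by 0.30. Utp4, listed as Cirh1a and matched by its Ensembl identifier, had 12.75, 14.9 and 22.66 FPKM in DEX libraries against 17.48, 22.3 and 29.4 FPKM in VEH libraries, and fell by 0.45 ± 0.08 (adjusted p = 0.0090, limma). Rrp9, a protein of the U3 particle, had the widest spread of any member over leukemias. It had 9.37, 15.6 and 20.12 FPKM in DEX libraries, against 15.09, 22.9 and 28.03 FPKM in VEH libraries. The groups overlapped. Rrp9 fell by 0.47 ± 0.13 (adjusted p = 0.0457, limma). Leukemia 4 moved by -0.87 and leukemia 2 by 0.17, and in 10 of 19 alternatives the adjusted p missed the threshold, as did that of Wdr3 in 14. Nop14 (-0.18, adjusted p = 0.20) and Noc4l (-0.02, adjusted p = 0.92), whose yeast counterparts work as partners, did not pass in limma, and Noc4l had 14.4 to 21.13 FPKM in DEX and 13.64 to 21.53 FPKM in VEH libraries.

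In the late 40S group, 2 of 6 fell. These were Tsr1 and Bysl. Pno1, a partner of Nob1 on the pre-40S particle, stood at -0.01 with a 95% interval of -0.24 to 0.21 (adjusted p = 0.94, limma), with 12.52, 21.1 and 25.45 FPKM in DEX libraries and 15.53, 19.4 and 27.95 FPKM in VEH libraries. In leukemia 2 its DEX library was the higher one, by 0.49. Ltv1, an assembly factor on the cytoplasmic pre-40S particle, had a difference of -0.11 with an interval of -0.34 to 0.13 (adjusted p = 0.52, limma). Nob1, the nuclease that makes the final end of 18S RNA, and Rrp12 had larger values that missed the threshold (-0.30 with adjusted p = 0.0546, and -0.33 with adjusted p = 0.0658, limma). The processome group held 7 falls among 9 genes. With rescaling to a fixed sum per library, 4 of the 6 late 40S factors fell, and the difference between these subgroups was not tested.

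Small and large subunit factors were set side by side within each leukemia. The median of the small subunit factors minus that of the large subunit factors was 0.16, 0.15, 0.10, 0.16, -0.02 and 0.12 in leukemias 1 to 6 (SD 0.07, n = 6), so that small subunit factors were nearer 0 in 5 of 6 leukemias. Taken from the fitted differences over all leukemias, which is another statistic, the contrast of medians was 0.04, and it was -0.02 in the fit without leukemia 3. No p-value is given for it, since it is a score over chosen genes.

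Among snoRNP proteins, 6 of 8 fell, 0 rose and 2 did not pass, with a median of -0.46. Dkc1, the pseudouridine synthase of box H/ACA particles (ENSMUSG00000031403, chrX:75095854-75109777), had 38.58, 53.3 and 61.39 FPKM in DEX libraries, against 68.94, 76.9 and 101.26 FPKM in VEH libraries. The groups did not overlap, and Dkc1 fell by 0.60 ± 0.07 (SE, n = 6; adjusted p = 0.0025, limma). Its partners in the same particle, Gar1 and Nhp2, fell by 0.47 and 0.39. Gar1 had 18.94, 29.7 and 33.55 FPKM in DEX libraries against 30.55, 39.2 and 47.77 FPKM in VEH libraries, with overlap of only a few libraries (adjusted p = 0.0061, limma). Nop10, the smallest protein of that core, did not pass (-0.22, interval -0.41 to -0.03, adjusted p = 0.12, limma).

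Nop56, a core protein of box C/D particles (ENSMUSG00000027405, chr2:130274430-130279313), was the second most abundant member, at 101.78, 141 and 189.18 FPKM in DEX libraries, against 168.23, 191.14 and 250.21 FPKM in VEH libraries. It fell by 0.51 ± 0.09 (adjusted p = 0.0080, limma), and the groups overlapped only through leukemia 3, whose DEX library exceeded VEH libraries of other leukemias. Nop58, its partner, fell by 0.46. Fbl, the methyltransferase of the same particle, did not pass (-0.12, interval -0.35 to 0.12, adjusted p = 0.48, limma), and its DEX library was the higher one by 0.36 in leukemia 6 and by 0.09 in leukemia 2. Nolc1, a chaperone of both particle types, had 12.41, 22.4 and 33.62 FPKM in DEX libraries against 23.72, 33.2 and 40.74 FPKM in VEH libraries. It fell by 0.51 ± 0.12 (adjusted p = 0.0250, limma), but in leukemia 6 it moved by only -0.04.

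Of the 4 general nucleolar proteins, 1 fell. This was Ddx21, an RNA helicase of ribosomal RNA transcription and processing, with 30.84, 44.7 and 55.16 FPKM in DEX libraries, against 51.65, 59.8 and 81.51 FPKM in VEH libraries. The groups overlapped only through the DEX library of leukemia 6, and DEX was lower in all 6 leukemias, by 0.47 ± 0.08 on average (adjusted p = 0.0074, limma). Npm1, which encodes the histone and ribosome chaperone nucleophosmin, was the most abundant member, at 462.3, 669 and 827.02 FPKM in DEX libraries and 642.38, 735 and 1018.98 FPKM in VEH libraries. The groups overlapped. Its difference of -0.24 ± 0.08 missed the threshold (adjusted p = 0.0818, limma) and passed it in 4 of 19 alternatives. Npm1 has processed pseudogene copies, and how shared reads were split is not given in the sources used here, so its level is uncertain. Mybbp1a, a nucleolar regulator of RNA polymerase I, had 29.88, 48.1 and 57.43 FPKM in DEX and 44.76, 56.9 and 75.87 FPKM in VEH libraries (-0.32 ± 0.11, adjusted p = 0.0765, limma), again with overlap. Ncl, which encodes nucleolin, had 61.33, 82.6 and 90.88 FPKM in DEX and 77.64, 85.4 and 107.4 FPKM in VEH libraries, and its difference of -0.14 had an interval of -0.32 to 0.03 (adjusted p = 0.25, limma).

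The 6 leukemias differed in how far the members moved. The median over the 41 members was -0.56, -0.16, -0.39, -0.42, -0.58 and -0.18 in leukemias 1 to 6, and 41, 30, 39, 41, 40 and 32 of them were below 0 there. Leukemias 1 and 5 thus stood lowest, and leukemias 2 and 6 nearest to 0. That order is of FPKM with no further scaling, and the order after rescaling is not given here. The FPKM sum was 1910539 in DEX against 1507527 in VEH for leukemia 2. It was 1799765 against 1556034 for leukemia 5 and 2019058 against 1664239 for leukemia 6. In leukemias 1, 3 and 4 it was 1466471 against 1485323, 1725639 against 1746848 and 1675308 against 1629316. The part of these sums in the order was not tested. Over all tested genes the medians were -0.03, -0.12, -0.02, -0.01, -0.03 and -0.09. Of those 12358 genes, 6763, 7528, 6580, 6323, 6827 and 7402 were below 0 in leukemias 1 to 6. In leukemia 2, 8 of 15 small subunit and 12 of 14 large subunit factors were below 0. Their medians were -0.09 and -0.24 there, beside -0.12 over all tested genes, so the small subunit median was not the lower one. Granulocyte markers stood lowest in leukemias 2 and 6 as well, with mean differences of -1.19 and -1.07, against -0.58, 0.60, 0.15 and -0.28 in leukemias 1, 3, 4 and 5, and those of erythroid markers were -1.26, -2.56, 0.10, -0.19, 0.31 and 0.36 in leukemias 1 to 6. Their part in the members' values was not tested. Myc itself fell in all 6 leukemias, to 28.7 ± 5.34 FPKM in DEX against 72.5 ± 11.1 FPKM in VEH (SD, n = 6 each), and moved by -1.67, -0.67, -1.48, -1.46, -1.25 and -1.35 in leukemias 1 to 6. With no further scaling, the smallest move of Myc was in leukemia 2, where the members were also nearest to 0. On that scale leukemia 6 had a large fall of Myc beside a small one of the members. The part of Myc in the members' values was not tested.

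**Figure D4:**
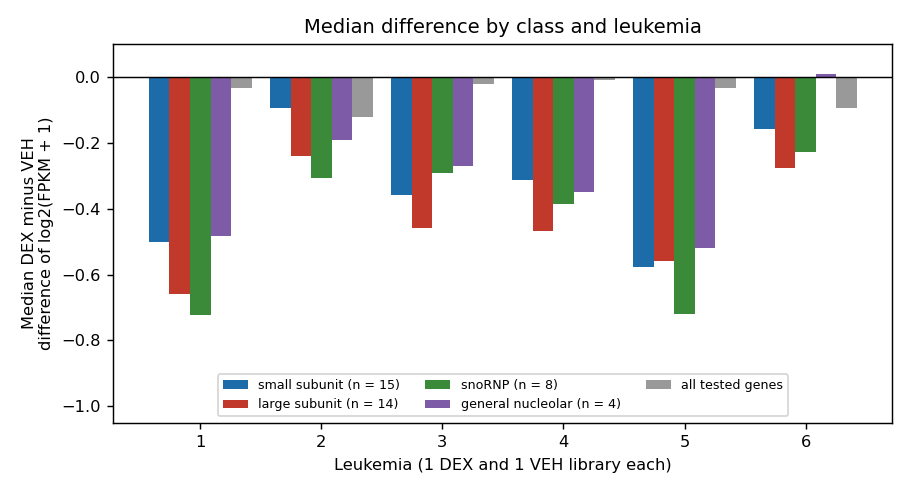
Median DEX minus VEH difference of log2(FPKM + 1) (y axis) in each of the 6 leukemias (x axis), with bars for the 4 classes of members and for all tested genes. In 6 of 6 leukemias the large subunit median is below that of all tested genes. The small subunit median is above it in leukemia 2 (-0.09, beside -0.12), and the general median in leukemia 6 (0.01, beside -0.09). With no further scaling of FPKM, the small subunit, large subunit and general bars are nearest to 0 in leukemias 2 and 6.

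Levels differed between leukemias for many members and for many tested genes alike. The F test on the leukemia terms called 26 of 41 members (63.4%), beside 51.1% of all tested genes. Such calls were thus not particular to the members. Leukemia 5 had the lowest level for 35 of 41 members, with a median deviation of -0.35 on the log2 scale from the mean of each gene, beside 0.03 over all tested genes. Leukemia 6 (0.17, beside -0.08 over all tested genes) and leukemia 1 (0.13, beside 0.07) were highest for 16 and 14 members. The shares of all tested genes that were lowest or highest in these leukemias are not given here. The call count was 8 without leukemia 5, and 17 without leukemia 1 or without leukemia 4. Those fits also hold fewer libraries, and their share of all tested genes is not given here. The counts therefore do not show which leukemias set the calls. Summed over the members, the level was 1329.9 FPKM in the DEX and 2021.2 FPKM in the VEH library of leukemia 5, and 2273.8 FPKM in the DEX and 2541.1 FPKM in the VEH library of leukemia 6. Npm1 alone made up a large part of that sum, and without it the values were 867.56 FPKM in DEX and 1378.9 FPKM in VEH for leukemia 5.

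Other genes of the pathway, taken from lists of textbook membership, were tested in the same fit. Like the members, these lists were chosen with earlier results of these data known, so they are no independent check. Of 105 such genes in the table and tested, 30 fell (28.6%, beside 9.28% of all tested genes), 0 rose and 75 did not pass. Their median difference was -0.18. At an unadjusted p under 0.05, 52 were lower and 3 higher. Among 50 other large subunit factors 18 fell (36.0%, median -0.24). Nol8 fell by 0.70, to 8.96 ± 0.996 FPKM in DEX against 15.2 ± 2.02 FPKM in VEH (SD, n = 6 each). Mdn1, the gene of a very large pre-60S ATPase, fell by 0.66 and Urb2 by 0.61. Of 45 other small subunit factors 8 fell (17.8%, median -0.13), led by the processome genes Utp18 (-0.49), Mphosph10 (-0.41) and Utp6 (-0.37). In the snoRNP assembly list 4 of 10 fell (median -0.26). Naf1, an assembly factor of box H/ACA particles, fell by 0.65, the ATPase gene Ruvbl1 by 0.39 and Shq1, a chaperone of the Dkc1 protein, by 0.38. The count of 30 was 11 without leukemia 1, 16 without leukemia 4 and 11 without leukemia 5. In those fits 3.95%, 4.82% and 3.44% of all tested genes fell.

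Genes whose 6 within-leukemia differences were most like the members' median were sought among the 1125 other genes that passed the test and averaged at least 10 FPKM. The 5 nearest were Pus1 (r = 0.97), which encodes a pseudouridine synthase of transfer RNA, Rsl1d1 (0.97), a nucleolar protein gene of the large subunit list, Polr1a (0.97), the largest subunit gene of RNA polymerase I, the importin gene Ipo4 (0.96) and 2410002F23Rik (0.96). These Pearson correlations run over 6 leukemias that share their libraries with the members and were picked from many genes, so they are a description. Pus1 had a mean of 13.4 FPKM in DEX against 18.5 FPKM in VEH, and Polr1a 12.4 FPKM in DEX against 15.9 FPKM in VEH.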

How the data were processed

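Total RNA was sequenced from 12 libraries, and groups were taken from the treatment in the labels. The deposited values are FPKM made by the authors, with 2 decimals; Bowtie2 (version 2), RSEM and edgeR are named without roles, with the build mm10, per the submitters' processing notes. The annotation and any filter are not given in the sources used here. Libraries were stranded, with paired reads of 100 bp, per the labels' protocols. As the file holds no counts, no count test was used and counting error is not separated from other spread.

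From these, log2(FPKM + 1) was computed with no further scaling; fold changes of low genes are understated on that scale. The test took the 12358 genes that reached 1 FPKM in 6 or more of the 12 libraries, all 41 members among them, in limma 3.58.1 (R 4.3.3; lmFit, eBayes with trend, two-sided, Benjamini-Hochberg over all tested genes, threshold 0.05), with leukemia as a block (5 residual and 3.995 prior degrees of freedom). All adjusted p-values of single genes are from that fit, and differences between leukemias from its F test. The block rests on the code of the leukemia, which stands in both titles. With group means removed, the correlation across genes was 0.55 to 0.82 within leukemias and -0.34 to 0.21 between them. The p-values measure the spread over 6 leukemias.

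Depth was estimated from 1222 sparse gene models of 400 to 700 bp, with an assumed fragment of 150 bp. Symbols, biotypes and coordinates came from GENCODE M21 (GRCm38, the assembly of mm10), matched by Ensembl identifier for 37693 of 38339 rows. Members and lists were chosen with earlier results of these data known. Full values are given for the 4 members of each class with the largest absolute difference, the most and least abundant member and the one with the widest spread; Noc4l, Pno1 and Utp4 were added after their values were seen. The fit was tested on simulated data. There were 19 alternatives (pseudocount, filter, scaling, block, variance model, weights and subsets of leukemias).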

Additional observations from a re-analysis of the deposited data

Results flagged for a closer look

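The DEX levels, the VEH levels and the within-leukemia differences of the 41 members gave 123 sets of 6 values. In 3 sets a value lay far from the other 5 by Dixon's criterion. Chance meets that criterion in about 1 of 20 sets, so 3 flags are fewer than chance alone would give. All 3 were VEH levels of leukemia 1. Heatr1 stood at 27.57 FPKM there, against 18.68 to 20.72 FPKM in the other VEH libraries. Utp20 stood at 19.2 FPKM, against 10.78 to 12.25 FPKM. Nop10 stood at 77.92 FPKM, against 50.4 to 58.86 FPKM. Leukemia 1 also had the highest VEH level for 23 of 41 members. The share of all tested genes with their highest VEH level there is not given. Over all tested genes, leukemia 1 also had the highest median deviation from the gene mean (0.07). The VEH library of leukemia 1 had the lowest estimated depth, at 11700000 fragments, and the highest summed granulocyte markers, at 9172.5 FPKM. Their part in these levels was not tested. Without leukemia 1, Heatr1 kept its call and Utp20 lost it, with differences of -0.40 and -0.33.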

How the results depend on the processing

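At the threshold of 0.05, the counts of falls depended on the filter, the scaling and the leukemias used, while the median over the members minus that over all tested genes stayed between -0.45 and -0.24 in every alternative. With no filter, 14 members fell (4 small, 6 large subunit), 12 members differed between leukemias and 13 other assembly genes fell. Median-of-ratios scaling gave 18 members (7 large subunit) and moved the median of all tested genes to 0.000970, and no filter to 0.0024. Rescaling to a fixed sum per library (TPM) gave 34 members and 46 other genes, and moved the median of all tested genes to -0.16, with the members at -0.36 relative to it.

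Without the leukemia block, 0 members (0 small, 0 large subunit) and 3 other genes fell, with 25 members at an unadjusted p under 0.05. Leaving out each leukemia in turn gave 16 to 29 members, 5 to 10 small and 6 to 12 large subunit factors, 8 to 28 members that differ between leukemias and 11 to 29 other genes, and the small minus large contrast ran from -0.0203 (without leukemia 3) to 0.0805. Leukemias 1, 3 and 4 alone gave 6 differing members and 13 other genes. Leukemias 2, 5 and 6 alone gave 5 members (1 small, 3 large subunit), 13 differing members and 4 other genes. The cause of these changes was not tested.

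Noc4l stood at 0.0429 with median-of-ratios scaling, 0.0345 with quantile normalization, 0.192 in leukemias 2, 5 and 6, and -0.0814 to 0.0316 with single leukemias left out (above 0 without leukemia 1, 3 or 4). Pno1 stood at 0.0472, 0.0331, 0.0747 and -0.113 to 0.0427 (above 0 without leukemia 1 or 5). No other member changed sign. FPKM carry no counts, so the depth behind low members such as Bysl and Noc3l is known only from the estimate.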

Other observations

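Several assembly factor genes are hosts of small nucleolar RNAs, which are cut from their introns. In GENCODE M21, 23 snoRNA models of 68 to 133 bp lay on the same strand inside 8 members. Nop56 held 5, Nop58 held 4, Wdr43, Gnl3 and Ncl held 3 each, Tsr1 and Ppan 2 each, and Dkc1 1. Of these models, 22 were listed at 0 in all 12 libraries and 1, in Nop56, was above 0 in 1 library, so none was tested. In the whole table, 181 of 1525 snoRNA and scaRNA models were above 0 in at least 1 library. Values listed at 0 in this file do not show that the small RNAs were absent.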
